A study of Mus musculus with 18 samples.

Results

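Neutrophils were described among single cells of mouse skin taken in the first days after a subcutaneous expander stretched the skin. They were picked cell by cell from raw counts of unique molecular identifiers (UMIs, each standing for 1 captured transcript). A barcode counted as a cell when it held 200 genes or more, 500 UMIs or more and no more than 10% mitochondrial UMIs. A kept cell was taken as a neutrophil when S100a8 and S100a9 together gave at least 2% of its UMIs and Csf3r, Retnlg, G0s2 and Acod1 together at least 1 UMI. It also had to hold fewer than 5 UMIs of C1qa, C1qb and C1qc and less than 0.3% Krt5 and Krt14. Of 47251 kept cells, 1190 met the rule, 96 in the control arm and 1094 in the expanded arm.

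Per the labels' protocols, all mice of both arms had surgery, with an incision near the tail from which a path was opened beneath the skin as far as the neck. Mice labelled EXP received a hydrogel expander in that pocket, which was stitched shut, and mice labelled CTRL received none, so the control arm carries the wound but not the implant. Skin was digested after 1, 2 or 4 days and living DAPI-negative cells were sorted for droplet 3′ sequencing, with 5 libraries per arm: days 1 and 2 in sequencing rounds 1 and 2, and day 4 in round 1. Mice of 1 arm and round were pooled in 1 tube and told apart by hashing antibodies, except on day 1, round 1, which left 14 hashed mice per arm. The labels give no strain, sex or age. Since each arm of a round was its own reaction, reaction and arm cannot be told apart.

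Neutrophils are short-lived granulocytes that leave the blood for injured or infected tissue within hours. They take up microbes, release granule proteins and reactive oxygen, and draw in more leukocytes through interleukin 1 and chemokines such as Cxcl2, whose receptor Cxcr2 guides their own entry. They live largely on glycolysis and carry abundant S100a8 and S100a9, the subunits of the calcium-binding protein calprotectin, together with receptors for the growth factor G-CSF (Csf3r). Mature cells no longer make the primary and secondary granule proteins of their precursors in the bone marrow.

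The deposited libraries held 2468 to 9115 barcodes and 17726739 to 75470722 gene UMIs. Neutrophils were sparse in control libraries, with 6 and 27 cells on day 1 (rounds 1 and 2), 9 and 40 on day 2, and 14 on day 4. Expanded libraries held 19 and 203 on day 1, 436 and 180 on day 2, and 256 on day 4. The summed neutrophils of 3 control and 5 expanded libraries with at least 10 of these cells were used for levels and gene tests, so control levels rest on 81749 UMIs or fewer per library. Of these libraries, the expanded one of day 1, round 1, stood apart with only 19 neutrophils and with 2755 CPM (UMIs of a gene scaled to a fixed total of the summed neutrophils) of the fibroblast transcript Dcn. The control library of day 2, round 1, with 9 neutrophils, was outside the gene tests, and 6.19% of its neutrophil UMIs came from fibroblast markers. No neutrophil barcode was shared between libraries (0), although 263 kept barcodes were, and 47 hashed neutrophils (4.03%) carried several hashtags against 5.19% of other leukocytes.

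The values that chose the cells are given as a description. S100a8 and S100a9 together took from 2.01% to 45.7% of a neutrophil's UMIs, with a median of 7.65% in control and 9.95% in expanded cells. Just inside the 2% limit, 45 neutrophils lay between 2% and 2.5%, and just outside it 48 cells lay between 1.5% and 2%. A further 19 cells with enough S100 transcripts lacked the second set of genes, 1 had 5 or more C1q UMIs and 5 exceeded the keratin limit. The neutrophils held 514 to 23160 UMIs, with a median of 3024.

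The cells carried the wider neutrophil programme that the rule did not use. Hdc, which makes histamine, was at 2230 CPM in expanded neutrophils and 112 times its level in all other kept cells. Cxcr2 stood at 641 CPM, a ratio of 448, and Mmp9, a gelatinase of the tertiary granules, at 460 CPM, a ratio of 330. All 20 neutrophil markers outside the rule were higher in these cells than in the rest of the skin and than in the 7299 monocyte/macrophage-type cells, the nearest myeloid cells. Those were cells with at least 5 UMIs of macrophage genes, among them Csf1r, Fcgr1 and the C1q genes. The 20 markers together gave 4.32% to 5.51% of neutrophil UMIs in the 3 control libraries and 3.27% to 4.80% in the 5 expanded ones, against 0.296% in monocyte/macrophage-type cells.

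Markers of precursors and of other cells were low. The immature markers included Chil3 and the granule proteins Mpo, Elane, Camp and Ltf. They took 0% of UMIs in the control library of day 4, where 3 counts would be 106 CPM. They took 0.00782% and 0.00245% in the other controls and 0.0182% to 0.0488% in the expanded libraries. In monocyte/macrophage-type cells they took 0.0383%, more than in any expanded library but that of day 2, round 2. In that library Chil3 alone stood at 402 CPM. Macrophage markers took 0.0212% to 0.0477% in control and 0.0301% to 0.0683% in expanded neutrophils, against 0.820% in monocyte/macrophage-type cells. Monocyte markers took 0.00196% to 0.0147% in control and 0.00854% to 0.0725% in expanded neutrophils, against 0.223% in monocyte/macrophage-type cells. By a separate set, 279 neutrophils (23.4%) held at least 1 UMI of Csf1r, Ccr2, Ly6c2 or Adgre1. These are the monocyte genes meant where neutrophils that held them were left out. Of the 6 eosinophil markers, 4 were at 0 in all neutrophils, and Siglecf, which also marks some tissue neutrophils, reached 12.2 CPM at most. Fibroblast markers ran from 0.0722% to 0.356% in control and from 0.00884% to 0.499% in expanded neutrophils, against 17.1% in fibroblasts.

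**Figure D1:**
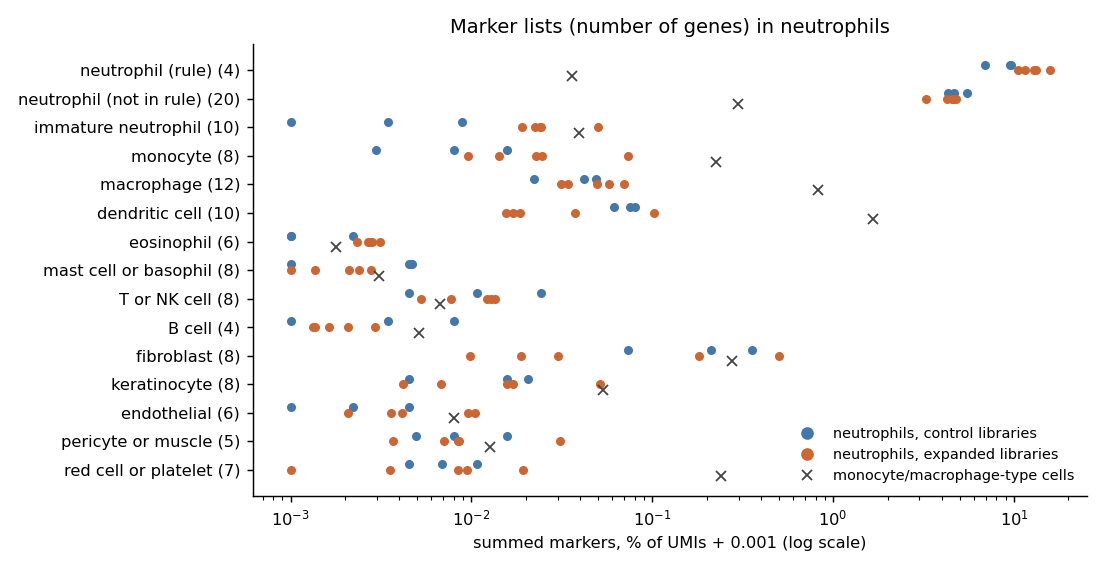
Summed marker lists in neutrophils of each library with at least 10 of them, as percent of their UMIs plus 0.001 on a log axis, for control and expanded libraries (dots) and for monocyte/macrophage-type cells of all libraries (crosses). The markers outside the rule lie at 3.27% to 5.51% in neutrophils and at 0.296% in monocyte/macrophage-type cells, and the macrophage list shows the opposite order.

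Inflammatory genes were among the most abundant transcripts of expanded neutrophils, beside S100a9 and S100a8 at 81132 and 40780 CPM. Malat1 (24829 CPM) and Gm42418 (17977 CPM) ranked 5 and 6, against 30382 and 17899 CPM in other kept cells. Fth1, the heavy chain of ferritin, averaged 52106 CPM and the chemokine Cxcl2 48361 CPM, or 4.84% of all neutrophil transcripts. Srgn, the proteoglycan core of granules, averaged 16186 CPM, Il1b 14698 CPM, the endotoxin co-receptor Cd14 13808 CPM and the chemokine Ccl4 10646 CPM. Relative to all other kept cells, Retnlg (4294 times), Mrgpra2b (1813 times), Fpr1 (600 times) and Stfa2l1 (625 times) stood far apart. Ratios to other cells are a description, since they follow from choosing neutrophils.

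Skin with an expander held more neutrophils at each time and round. In control libraries they made up 0.103% and 0.325% of kept cells on day 1 (rounds 1 and 2), 0.412% and 0.684% on day 2, and 0.186% on day 4. In expanded libraries the shares were 0.643% and 3.45% on day 1, 12.9% and 9.34% on day 2, and 7.48% on day 4. The expanded share exceeded that of its own round 6.25-fold and 10.6-fold on day 1, 31.2-fold and 13.6-fold on day 2, and 40.1-fold on day 4. Only the expanded library of day 1, round 1, lay below a control library, the one of day 2, round 2.

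The means were 0.342% ± 0.226 in control and 6.75% ± 4.81 in expanded libraries (SD, n = 5 each), a difference of 6.41 percentage points. The two-sided exact permutation test gave p = 0.0159, or 0.0238 adjusted over 6 tests of shares. With the sequencing round kept as a block, the difference was the same and the exact p was 0.0625, the smallest that 5 pairs allow. In a share, more neutrophils and fewer other cells cannot be told apart, and fibroblasts numbered 9186 among kept control cells and 942 among expanded ones. As a share of leukocytes, which leaves fibroblasts out, neutrophils were at 1.11% ± 0.609 and 14.3% ± 7.69 (SD, n = 5 each, exact permutation p 0.00794, the smallest for 5 against 5).

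Single mice showed the same difference with animals as replicates. All mice of 1 arm and round shared 1 reaction, with 8 hashed reactions in all. The p-values over mice, here and below, therefore measure the spread between mice and cannot separate arm from reaction. Hashtags assigned 94.8% of the neutrophils and 93.5% of leukocytes in hashed libraries to a mouse but only 35.3% of other cells, so leukocytes were the denominator. On day 1, control mice had 0.883%, 1.68% and 0% neutrophils among leukocytes (0 of 151, which allows up to 1.99%) and expanded mice 1.43%, 8.40% and 10.2%. The means of 0.854% ± 0.840 and 6.67% ± 4.62 (SD, n = 3 each) did not pass the exact permutation test (p = 0.2), which cannot go below 0.1 with 3 against 3.

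On day 2, neutrophils rose from 1.63% ± 1.47 to 18.8% ± 8.20 of leukocytes (SD, n = 7 each, exact permutation p 0.00143 within rounds, the smallest possible, adjusted 0.00286). Control mice spanned 0.309% to 3.94% with a median of 1.11%, and expanded mice 7.69% to 28.2% with a median of 21.5%, so the arms did not overlap. Both rounds of day 2 showed it, at 1.20% ± 0.908 against 20.7% ± 6.94 in round 1 (n = 3 each) and at 1.95% ± 1.86 against 17.3% ± 9.80 in round 2 (n = 4 each). On day 4, control mice had 1.52%, 0.542%, 0.347% and 0% (0 of 404 leukocytes, which allows up to 0.743%) and expanded mice 26.3%, 11.3%, 4.46% and 19.7%, again without overlap. The means were 0.602% ± 0.650 and 15.4% ± 9.55 (SD, n = 4 each, exact permutation p 0.029, the smallest possible, adjusted 0.0343). Without any 1 of the 8 mice of day 4 the smallest possible p is 0.0571, and that value was reached each time.

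Over all days, the share was 1.17% ± 1.20 in 14 control mice and 15.2% ± 8.89 in 14 expanded mice. The difference of 14.1 percentage points had a permutation p of 2e-05 within day and round, the smallest that 100000 resamples can give, and 6e-05 after adjustment. Of the 14 expanded mice, 13 lay above every control mouse, and the lowest, a day 1 mouse at 1.43%, lay below 5 control mice. Expanded mice spread widely on each day, so the data do not order the days.

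The neutrophils moved apart from their nearest myeloid relatives. Monocyte/macrophage-type cells made up 42.5% ± 8.49 of leukocytes in control and 45.5% ± 14.7 in expanded mice (SD, n = 14 each). As a share of neutrophils and monocyte/macrophage-type cells together, neutrophils rose from 2.59% ± 2.46 to 24.4% ± 11.0 (SD, n = 14 each, difference 21.8 percentage points, permutation p 2e-05, the smallest possible).

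**Figure D2:**
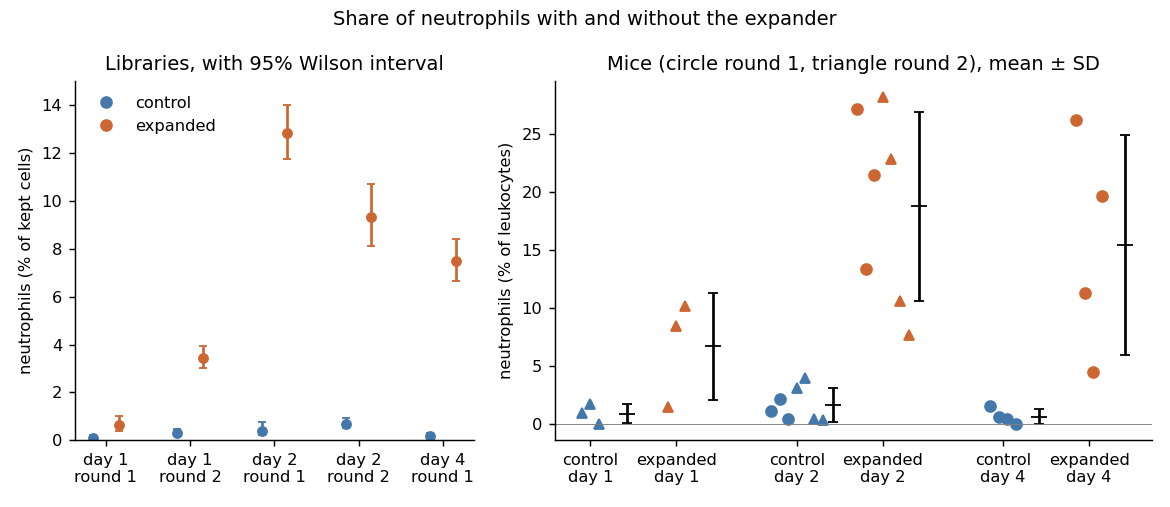
Left, neutrophils as percent of kept cells in the 10 libraries with Wilson 95% intervals, which cover counting error only. Right, neutrophils as percent of leukocytes in 28 hashed mice by day (circles round 1, triangles round 2, bars mean ± SD). Control mice stay at or below 3.94%, and expanded mice reach 28.2%.

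Expanded neutrophils also yielded more transcripts per cell. Median UMIs per neutrophil were 1780, 2063 and 1981.5 in the control libraries of day 1 (round 2), day 2 (round 2) and day 4. They were 4076, 2463, 3103, 4022 and 3210.5 in the 5 expanded libraries (day 1, day 2, day 4), without overlap. The means were 1942 ± 146 and 3375 ± 679 UMIs, a difference of 0.78 on the log2 scale (two-sided exact permutation p 0.0357, the smallest for 3 against 5 libraries). In the 2 control and 4 expanded libraries with at least 20 neutrophils the difference was 0.72 (exact p 0.133). Monocyte/macrophage-type cells of the same libraries differed in the same direction, with medians of 7015 ± 1993 and 12469 ± 2663 UMIs. Genes per neutrophil were 663 ± 69.6 and 832 ± 112. In bulk sums, fewer cells of a type and less RNA per cell cannot be told apart, and levels below are therefore given as CPM of neutrophil UMIs.

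Few genes passed a test between arms within neutrophils. Over 3411 genes tested on counts summed per library, with day as a covariate, edgeR's quasi-likelihood test called 2 genes at an adjusted p of 0.05, or 0.0586% of those tested. Both rose, and 0 fell. At an unadjusted p under 0.05 there were 221 higher and 62 lower genes, and DESeq2 called 15 (0.44%), with 13 higher (0.381%) and 2 lower (0.0586%). The genes tested had passed a filter on low counts, which a gene high in the 5 expanded libraries alone could pass, and the median log2 fold change of all genes tested was 0.16.

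The genes that rose were Cstdc5 (ENSMUSG00000071561) and Cstdc4 (ENSMUSG00000079597), members of the stefin A family. Stefins are small inhibitors that block cysteine proteases such as cathepsins inside cells, and the mouse carries a run of them side by side on chromosome 16. In the reference annotation (RefSeq, GRCm38.p6), the 10 genes of this cluster span 335 kb from position 36119946 to 36455392. Cstdc4 lies at chr16:36184212-36188111 on the plus strand and Cstdc5 at chr16:36359382-36367570 on the minus strand. Cstdc4 and the cluster as a list were chosen for this account after their values were seen.

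The 250 bases before the start of both genes are shown because the genes moved together and share a stretch there (RefSeq, GRCm38.p6, 5′ to 3′ in the direction of each gene). Capitals mark the longest run of bases that both windows hold.
Cstdc4, chr16:36183962-36184211, plus strand: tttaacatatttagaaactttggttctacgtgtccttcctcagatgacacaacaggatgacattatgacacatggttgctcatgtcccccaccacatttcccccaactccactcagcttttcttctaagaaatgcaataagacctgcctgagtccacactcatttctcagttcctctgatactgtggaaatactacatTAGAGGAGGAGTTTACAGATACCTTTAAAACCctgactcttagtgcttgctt
Cstdc5, chr16:36367571-36367820, minus strand: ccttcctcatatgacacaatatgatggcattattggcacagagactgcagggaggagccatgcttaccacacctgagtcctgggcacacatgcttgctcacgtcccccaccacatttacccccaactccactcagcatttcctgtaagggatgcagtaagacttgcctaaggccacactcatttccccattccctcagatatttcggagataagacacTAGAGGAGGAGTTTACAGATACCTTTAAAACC
The run of 32 bases begins 52 bases before the start of Cstdc4 and 32 bases before that of Cstdc5. It occurs in 2 of the 9 stefin promoters in the table, and in 3 of all 32851 promoters of mouse genes. Over the whole windows the sequences were 65.1% identical.

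Cstdc5 had 97.8, 367 and 212 CPM in the control libraries of day 1 (round 2), day 2 (round 2) and day 4. In expanded libraries it was at 769 and 1088 CPM on day 1, at 1372 and 1417 on day 2, and at 4014 on day 4. The arms did not overlap, and the expanded library of day 4 was the highest by far. The means were 225 ± 135 (n = 3) and 1732 ± 1302 CPM (n = 5), a log2 fold change of 3.12 (edgeR SE 0.44, adjusted p 0.0187). Reads of Cstdc5 are uncertain, since 50.4% of the 50-base stretches in the last 400 bases of its transcript recur in another stefin, mostly Stfa1, to which that part is 98% identical. Stfa1 itself was listed at 10.7 CPM or less in each library.

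Cstdc4, of which no such stretch (0%) recurs in another stefin, had 509, 1358 and 1552 CPM in the same control libraries. Expanded libraries had 1260 and 2319 CPM on day 1, 5311 and 5001 on day 2, and 4841 on day 4. Only the expanded library of day 1, round 1, lay within the control range. The means were 1140 ± 555 and 3747 ± 1833 CPM, a log2 fold change of 2.05 (edgeR SE 0.31, adjusted p 0.0217).

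The direction held in every alternative tried and the calls did not. Both genes were higher in expanded neutrophils in all 16 and passed in 9, with adjusted p from 3.8e-08 to 0.606 for Cstdc5 and from 1.6e-07 to 0.764 for Cstdc4. Leaving out the control library of day 4, that of day 1, or any expanded library other than that of day 1, round 1, ended both calls. Without the control library of day 2, round 2, Cstdc5 passed (edgeR adjusted p 0.0352) and Cstdc4 did not (0.698).

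Other stefins lay in the same direction. Stfa2 was at 97.8, 0 and 247 CPM in control and at 42.7, 605, 667, 1093 and 2024 CPM in expanded libraries, in the order used above (log2 fold change 3.75, edgeR SE 0.92, adjusted p 0.244). Stfa2l1 was at 900, 1015 and 2293 CPM against 1068, 2360, 2918, 3074 and 4152 CPM (1.38, SE 0.34, adjusted p 0.244). Stfa3 reached 19.6 CPM in 1 control library and was at 0 in the others, against 42.7 to 65.4 CPM on days 1 and 2 and 386 CPM on day 4. Csta3 was at 0, 61.2 and 35.3 CPM against 85.4 to 229 CPM. In these control libraries 3 counts would be 58.7, 36.7 and 106 CPM. Control levels of Stfa3 thus rest on fewer than 3 counts per library, as do those of Csta3 on days 1 and 4. The separation of the arms in both genes is uncertain.

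Of the 10 genes of the cluster, 6 passed the filter on low counts, 2 were called, and the 6 had a median log2 fold change of 2.87. Cstdc6, Csta1 and Csta2 stood at 25.6 CPM or below. Summed over the cluster, stefins gave 0.162%, 0.283% and 0.434% of neutrophil UMIs in control libraries and 0.328%, 0.661%, 1.06%, 1.08% and 1.56% in expanded ones. In monocyte/macrophage-type cells the 10 genes lay between 0.03 and 7.19 CPM. With each cell thinned to 1000 UMIs, Cstdc4 was seen in 32.8% of control and 55.3% of expanded neutrophils, and in 0.02% and 0.35% of monocyte/macrophage-type cells. Unthinned, the shares were 35.4% and 62.1% of neutrophils.

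Keeping the sequencing round as a block changed the number of calls. That fit rests on the 3 rounds in which both arms had at least 10 neutrophils, hence on 6 libraries, and leaves out the expanded libraries of day 1 and day 2, round 1. It called 36 of 3022 genes, 1.19%, with 29 higher (0.96%) and 7 lower (0.232%). The higher ones include S100a8, a gene of the member rule, which is not read as a result. All 6 stefins tested were among the higher. For comparison, the fit without the block called 41 genes once the expanded library of day 1, round 1, was left out. The genes named from the blocked fit in the next paragraphs were chosen after their values were seen, apart from members of the gene groups.

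Among the ligands that neutrophils send out, Il1b and Cxcl2 were high in both arms. Il1b, the main secreted interleukin 1, was at 20027, 17419 and 16476 CPM in control libraries and at 7240, 13794, 16110, 18250 and 18092 CPM in expanded ones. Its log2 fold change was -0.10 (edgeR SE 0.32, adjusted p 0.973). Cxcl2 was at 53452, 32465 and 29001 CPM against 18816, 47009, 54141, 51000 and 70837 CPM (0.52, SE 0.42, adjusted p 0.764). For both, the arms overlapped and the expanded library of day 1, round 1, was the lowest. To compare shares of cells at equal depth, each cell was reduced at random to 1000 UMIs, and 4 control and 13 expanded neutrophils with fewer were left out. Il1b was then seen in 99.0% of control and 97.2% of expanded neutrophils (100% and 99.1% unthinned). It was seen in 26.6% and 30.4% of monocyte/macrophage-type cells, and in 0.35% and 0.30% of fibroblasts, which should lack it. Median depths before thinning were 1997.5 and 3145.5 UMIs in neutrophils and 11484 and 18881 in fibroblasts.

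Less abundant ligands lay higher in expanded skin without passing the first test. Ccl3, a chemokine that binds Ccr1, was at 3775, 991 and 1623 CPM against 1025, 5055, 5266, 3843 and 8661 CPM (log2 fold change 1.44, edgeR SE 0.62, adjusted p 0.592). Il1a, the alarmin form of interleukin 1, was at 39.1, 183 and 141 CPM against 53.4, 721, 667, 420 and 1140 CPM (2.63, SE 0.70, adjusted p 0.336). Ccl4 was at 7060, 3621 and 4728 CPM against 3321, 12704, 14078, 9795 and 13331 CPM. The expanded library of day 1, round 1, lay among the controls in Ccl3 and Il1a and below them in Ccl4, and the other 4 lay above all controls in each. DESeq2, without the block, called Il1a alone of the ligands (adjusted p 0.0487). With the round as a block, Il1a (log2 fold change 2.67, adjusted p 0.00114), Ccl4 (1.50, 0.00132), Ccl3 (1.82, 0.00421) and Tnf (1.73, 0.0181) rose in edgeR's test. The block left that library out.

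Of the 26 cytokine and chemokine ligands listed, 20 were tested without the block, with 0 called by edgeR and 1 by DESeq2, and with 8 higher and 0 lower at an unadjusted p under 0.05 and a median log2 fold change of 0.80. With the block, edgeR called 4 of 19, against 36 of 3022 over all genes (1.19%). Spp1 (osteopontin), a matrix protein that also acts as a cytokine, was at 19.6, 612 and 353 CPM in control libraries and at 0, 3099, 5557, 3072 and 5712 CPM in expanded ones. Its log2 fold change of 4.01 had an edgeR adjusted p of 0.336 without and 2.7e-05 with the block. Spp1 was seen in 12.9% of control and 32.6% of expanded neutrophils after thinning, and in 3.96% and 21.1% of monocyte/macrophage-type cells. Unthinned, it was seen in 17.7% and 39.4% of neutrophils. Free RNA as a source of Spp1 in neutrophils was not tested.

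**Figure D3:**
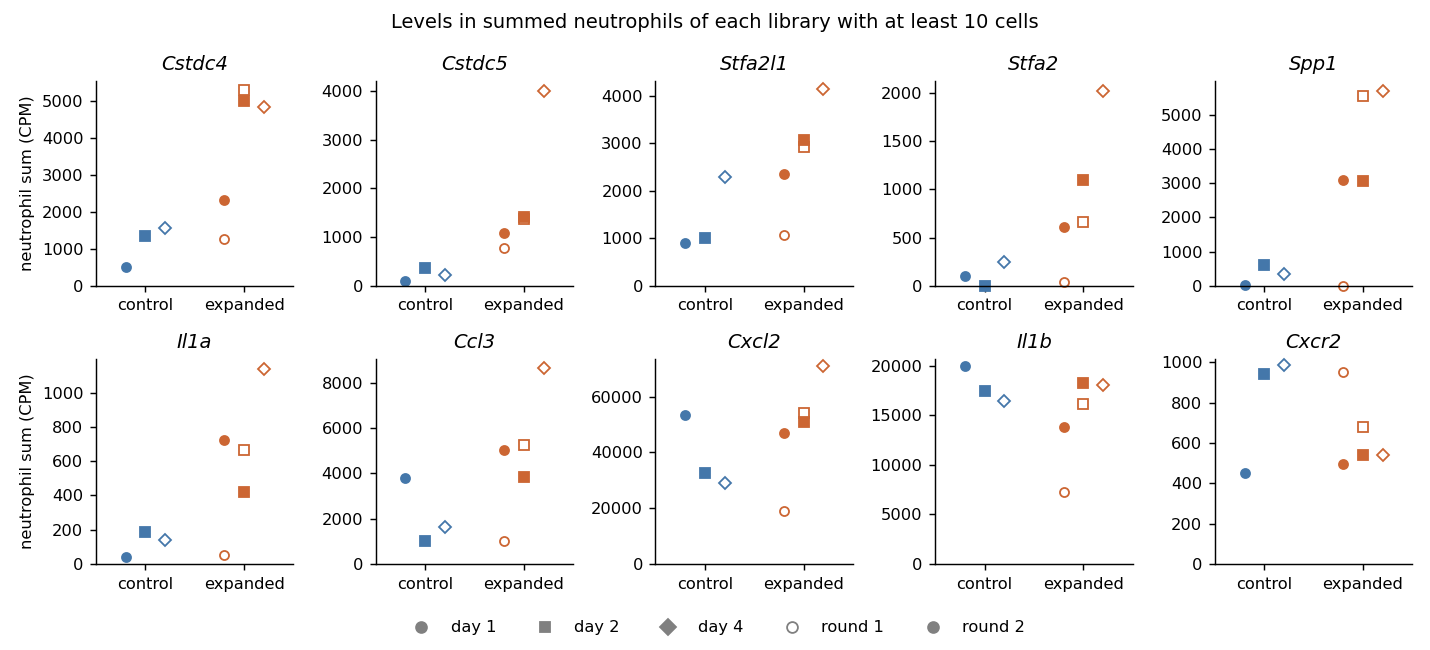
Levels of 10 genes in the summed neutrophils of each library with at least 10 of them, in CPM on linear axes from 0, for control and expanded libraries (circles day 1, squares day 2, diamonds day 4; open round 1, filled round 2). Cstdc5 is separated between the arms, from 97.8 to 367 and from 769 to 4014 CPM, and Il1b, Cxcl2 and Cxcr2 overlap.

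Receptors that guide and activate neutrophils showed no change that passed. Cxcr2 was at 450, 942 and 988 CPM in control and at 950, 497, 677, 541 and 538 CPM in expanded libraries (log2 fold change -0.04, edgeR SE 0.33, adjusted p 0.993). Cxcr4, which holds neutrophils in the marrow and rises as they age, was at 196, 196 and 212 CPM against 107 to 238 CPM (0.06). Il1r2, the decoy receptor that binds interleukin 1 without signalling, was at 3247, 3425 and 4057 CPM against 1162 to 2665 CPM, with no overlap (-0.70, adjusted p 0.572). Of 25 receptors, 21 were tested and 0 called in either edgeR fit or by DESeq2, with 1 higher and 1 lower at an unadjusted p under 0.05 and a median of 0.00.

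Granule genes leaned upwards with expansion, 8 of the 9 tested having a positive log2 fold change, against 2055 of all 3411 genes tested. Camp stood at 18.3 CPM or less in each library and Mmp9 at 332, 269 and 176 CPM against 265 to 897 CPM (log2 fold change 0.85, edgeR SE 0.35, adjusted p 0.587). Ngp, a secondary granule protein of precursors, was at 39.1, 12.2 and 0 CPM in control libraries. In expanded libraries it was at 150, 161, 152, 49.98 and 181 CPM (3.06, SE 0.76, adjusted p 0.258). Ly6g, the surface antigen used to sort mouse neutrophils, was at 24.5 to 39.1 CPM against 94.1 to 126 CPM (2.08, adjusted p 0.258). In these control libraries 3 counts would be 58.7, 36.7 and 106 CPM. Control levels of both genes thus rest on fewer than 3 counts per library, and the separation of the arms is uncertain. After thinning, Ngp was seen in 1.70% of control and 5.16% of expanded cells (4.17% and 10.5% unthinned). Mpo, the myeloperoxidase of precursors, had UMIs in 2 of 1094 expanded neutrophils. Wfdc21, a secreted protein of the whey acidic protein family, was at 318 to 1134 CPM against 1065 to 2627 CPM, and rose in the blocked edgeR fit (1.50, adjusted p 0.0149) and in DESeq2 without the block (1.50, adjusted p 0.00904). Of 16 granule genes, 9 were tested, edgeR called 0 and DESeq2 1 (Wfdc21) without the block, and 4 were higher and 0 lower at an unadjusted p under 0.05, with a median of 0.76.

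Pathogen sensors, adhesion molecules and the oxidase gave 0 calls in either edgeR fit and with DESeq2. Of 17 pattern and Fc receptors tested, 0 were called and 0 had an unadjusted p under 0.05, with a median log2 fold change of 0.15. Cd14 was at 18306, 18116 and 17887 CPM in control and 11395 to 16561 CPM in expanded libraries. Of 14 adhesion genes, 1 was higher (Ly6g) and 1 lower at an unadjusted p under 0.05, and of 6 subunits of the NADPH oxidase 1 was higher (Cybb), with medians of -0.01 and -0.17. The 19 NF-kB and survival genes had 2 higher at that level and a median of 0.18, and the 14 NRF2 and metal response genes 0 and a median of -0.08.

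Interferon response genes leaned upwards with expansion. Summed, the list gave 0.512%, 0.526% and 0.600% of neutrophil UMIs in control libraries. In expanded ones it gave 0.591%, 0.833%, 0.872%, 1.88% and 0.691%, so the arms overlapped. Of 29 listed, 21 were tested, and edgeR called 0 and DESeq2 1 (Ifitm1) without the block. At an unadjusted p under 0.05, 9 were higher and 0 lower (221 and 62 over all 3411 genes). The median log2 fold change was 1.35, or 1.30 with the genes absent from control neutrophils set at their lowest possible change. With the block, 5 of 19 rose in edgeR's test, against 29 of 3022 over all genes (0.96%). Among the 5 were Gbp2, an interferon-induced GTPase (3.35, adjusted p 0.00103), and Ifitm1, an antiviral membrane protein (1.46, 0.00132). Ifit1, Irf7 and Zbp1, also called there, had 0 UMIs in control neutrophils and so passed the filter on low counts only through expanded libraries. Ifit1 was at 0 in all control libraries. In expanded libraries it was at 0 on day 1, at 48.1 and 185 CPM on day 2 and at 46.5 CPM on day 4. Over all libraries tested this was at least 3.65-fold higher, against a floor of 3 counts in the 161223 UMIs of control neutrophils. The transcription factor Irf7 was at least 4.95-fold and the nucleic acid sensor Zbp1 at least 4.70-fold higher by the same floor. Isg15 did not follow, at 1134, 1737 and 1235 CPM in control and 481, 279, 1168, 3323 and 606 CPM in expanded libraries (-0.56, adjusted p 0.764).

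Genes that the blocked fit called lower belonged in part to other cells. Collagen genes Col1a1 and Col1a2 and the proteoglycan Dcn (log2 fold change -2.77, edgeR adjusted p 0.0018) mark fibroblasts, and H2-Eb1 (-2.03) is a class II antigen-presenting gene of dendritic cells. Fibroblasts were 9186 of the kept control cells and 942 of the expanded ones, and the part of transcripts from other cells in these differences was not tested. Ly6c2, a monocyte marker that the same fit called higher, moved beside the monocyte list, of which 3 of 4 tested genes were higher at an unadjusted p under 0.05. Without the neutrophils that held a monocyte gene, the fit without the block called 25 genes, with Cstdc5 (3.36) and Cstdc4 (2.60) among them.

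Changes over time were followed in 9 expanded mice with at least 20 neutrophils, 1 of day 1, 5 of day 2 and 3 of day 4. Counts were summed per mouse, and each reaction had its own coefficient. Between day 4 and the mean of the day 2 reactions, edgeR's quasi-likelihood test called 2 of 4411 genes, 0.0453%, both higher on day 4. At an unadjusted p under 0.05 there were 224 higher and 249 lower, and DESeq2 called 36 of 4410 (0.816%), with 20 higher (0.454%) and 16 lower (0.363%). All mice of day 4 came from 1 reaction, so day and reaction cannot be told apart.

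The genes that rose were Hilpda (ENSMUSG00000043421) and Fam162a (ENSMUSG00000003955), both known to be induced when oxygen is low. Hilpda coats lipid droplets and blocks their breakdown, and Fam162a is a protein of mitochondria. Hilpda was at 497 CPM in the day 1 mouse, at 588, 503, 496, 496 and 415 CPM in the day 2 mice and at 1386, 1285 and 1210 CPM in the day 4 mice. All day 4 mice lay above the others, with means of 500 ± 61.1 (n = 5) and 1294 ± 88.1 CPM (n = 3) and a log2 fold change of 1.31 (edgeR SE 0.21, adjusted p 0.038). Fam162a was at 6.24 CPM on day 1, at 8.24 to 40.1 CPM on day 2 and at 234, 162 and 116 CPM on day 4, a log2 fold change of 2.65 (SE 0.40, adjusted p 0.038). Over 17 alternatives both stayed higher, Fam162a passing in 7 (adjusted p 2.2e-08 to 0.473) and Hilpda in 5 (8.7e-05 to 1.0). Leaving out either mouse of day 2, round 2, mouse 1 of day 2, round 1, or mouse 1 or 2 of day 4 ended both calls.

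Oxygen-sensing transcription factors bind short core motifs, here searched as ACGTG and GCGTG on both strands in the same 250 bases (RefSeq, GRCm38.p6), and the windows of both genes are shown because they differ in this. Capitals mark the matches.
Hilpda, chr6:29272238-29272487, plus strand: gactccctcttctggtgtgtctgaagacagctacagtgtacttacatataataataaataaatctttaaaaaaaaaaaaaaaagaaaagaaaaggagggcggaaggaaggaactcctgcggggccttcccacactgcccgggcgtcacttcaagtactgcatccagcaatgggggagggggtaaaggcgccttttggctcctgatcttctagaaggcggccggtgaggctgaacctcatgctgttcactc
Fam162a, chr16:36071562-36071811, minus strand: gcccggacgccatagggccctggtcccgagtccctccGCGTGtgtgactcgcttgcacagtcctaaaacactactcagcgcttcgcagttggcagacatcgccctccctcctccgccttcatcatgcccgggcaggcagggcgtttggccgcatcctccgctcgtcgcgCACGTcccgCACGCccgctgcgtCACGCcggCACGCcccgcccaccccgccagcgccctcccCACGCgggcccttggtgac
Fam162a had 6 matches and Hilpda 0, and 38.6% of 32851 promoters hold at least 1. Fam162a, at chr16:36043844-36071561, lies just before the stefin cluster on chromosome 16. Of the 24 genes of the glycolysis and hypoxia list with a promoter in the table, 22 held a match in at least 1 of their promoters (91.7%), against 41.5% of 27025 genes. That share follows from sequence and from how the list was drawn up, not from these neutrophils, and binding was not tested.

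Other genes of glycolysis and the hypoxia response lay in the same direction. Pgk1, which makes ATP in glycolysis, was at 85.3 CPM in the day 1 mouse, at 99 to 117 CPM on day 2 and at 316, 307 and 264 CPM on day 4 (log2 fold change 1.40, edgeR SE 0.25, adjusted p 0.0564). Ero1l, an oxidase of the endoplasmic reticulum, was at 24.2 to 67.3 CPM on day 2 and at 222, 137 and 198 CPM on day 4 (1.85, SE 0.35, adjusted p 0.0596). Neither overlapped between day 2 and day 4, and neither passed in edgeR, while DESeq2 called both (adjusted p 0.00639 each). Egln3, an oxygen sensor that marks hypoxia-inducible factors for destruction, was at 7.25 to 31.2 CPM against 33 to 82.6 CPM, Bnip3 at 16.5 to 42.7 CPM against 44 to 119 CPM, and Ldha, which makes lactate, at 113 to 186 CPM against 242 to 506 CPM.

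Of 27 genes in the glycolysis and hypoxia list, 24 were tested, edgeR called 1 and DESeq2 5, and 9 were higher and 0 lower at an unadjusted p under 0.05. The median log2 fold change was 0.61, against -0.02 over all genes. Summed, the list gave 0.454% to 0.613% of neutrophil UMIs in the day 2 mice and 0.873%, 0.687% and 0.706% in the day 4 mice, against 0.415% in the day 1 mouse. Fibroblast transcripts moved beside it, with all 7 tested fibroblast markers higher on day 4 at an unadjusted p under 0.05, a median log2 fold change of 3.38 and 0 called by edgeR. The 8 markers summed to 0.00310% to 0.0297% of neutrophil UMIs in the day 2 mice and to 0.311%, 0.0251% and 0.0127% in the day 4 mice. Mouse 1 of day 4 lay above the day 2 mice, and the other day 4 mice lay within their range. The part of fibroblast transcripts in the day 4 differences was not tested.

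The stefins differed among themselves between day 2 and day 4. Cstdc5 averaged 1559 ± 382 CPM in the 5 day 2 mice and 4224 ± 573 CPM in the 3 day 4 mice without overlap (log2 fold change 1.32, edgeR SE 0.24, adjusted p 0.0596), which did not pass in edgeR and passed in DESeq2 (adjusted p 0.00073). Cstdc4 lay at 4434 to 6514 CPM on day 2 and 4935 to 5074 CPM on day 4. The chemokine receptor Ccr2, a monocyte gene, went the other way, at 12.4 to 124 CPM on day 2 and 0 to 6.04 CPM on day 4 (-3.58, adjusted p 0.0505). Il1b was level, at 14168 CPM on day 1, 15834 to 22711 CPM on day 2 and 16450 to 20841 CPM on day 4.

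**Figure D4:**
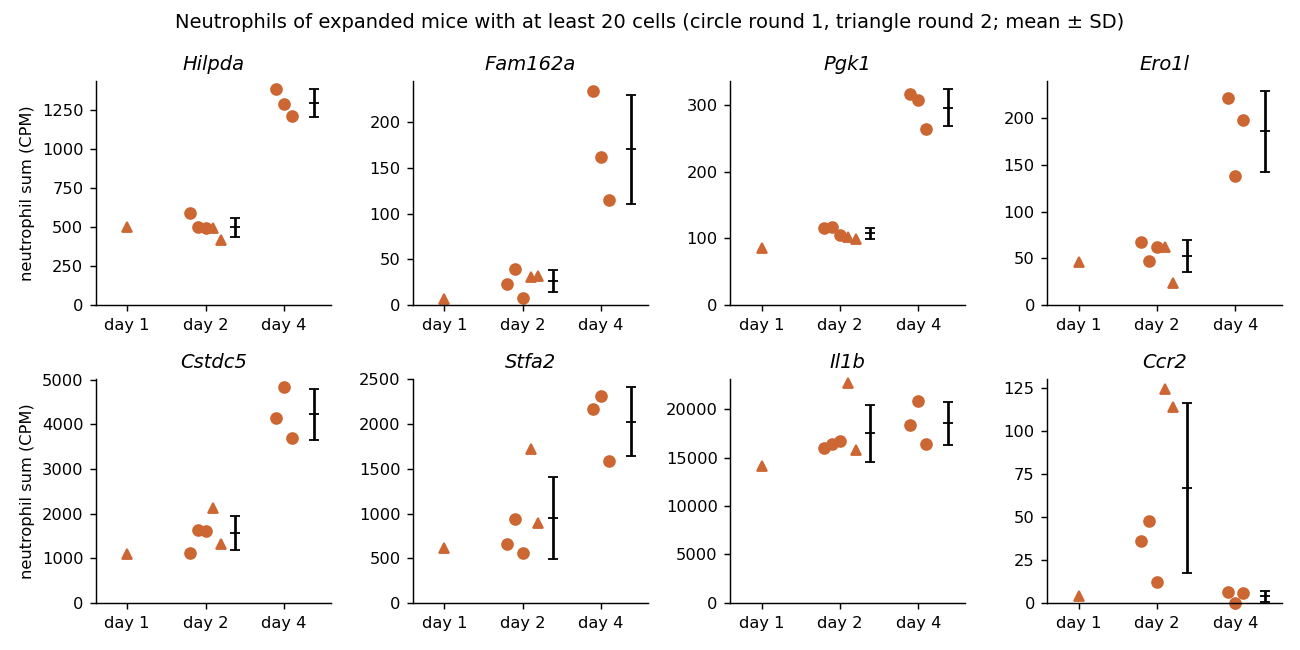
Levels of 8 genes in the summed neutrophils of 9 expanded mice by day, in CPM, with mean ± SD for days 2 and 4 (circles round 1, triangles round 2). Hilpda, Fam162a, Pgk1, Ero1l and Cstdc5 are higher in all 3 day 4 mice than in the 5 day 2 mice, and Il1b overlaps.

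Most genes called lower on day 2 than in the single day 1 mouse are known from other skin cells. Against day 1, edgeR's quasi-likelihood test called 9 of 4411 genes in day 2 mice, 0.204%, with 1 higher (0.0227%) and 8 lower (0.181%). The lone mouse had 178 neutrophils and is assumed to vary like the mice of the other days, so the p-values rest on the spread of those. It is the only mouse of its reaction in this fit, so mouse, day and reaction cannot be told apart. DESeq2 called 6 of 4410 (0.136%), with 4 higher (0.0907%) and 2 lower (0.0454%), and 0 were called by edgeR with libraries as replicates. The keratin Krt15 fell from 231 CPM to between 2.42 and 11.5 CPM (log2 fold change -5.16, SE 0.48, adjusted p 0.000132), and passed in 15 of 17 alternatives. The other 7 that fell were Lgals7 of keratinocytes, Rgs5, Tagln and Tpm1 of pericytes and muscle, Igfbp7 and Sparcl1 of vessels, and the secreted protein gene Crispld2. The part of transcripts from other cells in these differences was not tested. The 1 higher gene, Gm34084, a predicted gene without a known role, was at 0 in the day 1 mouse and at 33.8 to 59.7 CPM in the day 2 mice.

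Some neutrophil genes differed between days without passing. Thbs1 (thrombospondin 1), an adhesive matrix protein, was at 6525 CPM in the day 1 mouse and at 943 to 4641 CPM in the day 2 mice. The iron-binding granule protein Lcn2 was at 2635 CPM and at 715 to 1258 CPM (log2 fold change -1.36, edgeR adjusted p 0.133).

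Neutrophils of the same day and arm also differed between reactions. Between the reactions of day 2, edgeR's quasi-likelihood test called 3 of 4411 genes, 0.068%, all higher in round 2. Plac8 (ENSMUSG00000029322), a small cysteine-rich protein of myeloid cells, was at 98.5, 58.4 and 86.5 CPM in the mice of round 1 and at 597 and 1176 CPM in those of round 2 (log2 fold change 3.36, SE 0.42, adjusted p 0.00503). The chitinase-like gene Chil3 (ENSMUSG00000040809) was at 32.8, 3.65 and 20.6 CPM against 381 and 546 CPM (4.40, SE 0.71, adjusted p 0.0478). H2-T23 (ENSMUSG00000067212), a non-classical class I molecule, was at 8.21, 18.2 and 20.6 CPM against 155 and 176 CPM (3.36, SE 0.56, adjusted p 0.0479).

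Of the 27 interferon genes tested between these reactions, edgeR called 0. At an unadjusted p under 0.05, 15 were higher and 0 lower in round 2 (223 and 213 over all 4411 genes). All 27 had a positive log2 fold change, against 2151 of all 4411 genes, with a median of 1.89. Monocyte markers moved beside them, with 4 of 7 higher at that level and a median of 1.87, and their part was not tested. Isg15, an ubiquitin-like protein made on interferon signalling, was at 838, 905 and 1809 CPM in round 1 and at 1513 and 4857 CPM in round 2. It was at 285 CPM in the day 1 mouse and at 580, 598 and 776 CPM on day 4. Mouse 2 of round 2 was the highest, and the day 4 mice lay below every day 2 mouse. Set against the single day 1 mouse, 26 of 27 interferon genes had a positive log2 fold change on day 2, against 2218 of all 4411 genes. Their median was 2.97, or 2.56 with genes absent from that mouse at their lowest possible change. There edgeR called 0 and DESeq2 1 (Isg15), and 16 were higher at an unadjusted p under 0.05 (163 higher and 160 lower over all genes), a p that rests on 1 mouse of day 1. From day 2 to day 4, 12 of 27 were lower at that level and 0 higher, with a median of -1.52. In that comparison edgeR called 0, and DESeq2 called Isg15 (-1.67, adjusted p 0.00639) and Slfn4 (-1.58, adjusted p 0.0225) lower.

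The upstream window of Isg15 is shown because it carries the motif by which interferon-activated factors are known to bind, GAAA followed by NN and GAAA, searched on both strands (RefSeq, GRCm38.p6, 5′ to 3′). Capitals mark the matches.
Isg15, chr4:156200819-156201068, minus strand: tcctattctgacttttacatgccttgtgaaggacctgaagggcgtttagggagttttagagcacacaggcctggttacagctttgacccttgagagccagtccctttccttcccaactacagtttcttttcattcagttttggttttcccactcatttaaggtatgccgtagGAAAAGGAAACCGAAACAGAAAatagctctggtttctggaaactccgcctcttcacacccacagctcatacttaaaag
It holds 3 overlapping matches, beginning 78, 72 and 66 bases before the start, and 2.98% of 32851 promoters hold at least 1.

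The interferon genes were spread over most neutrophils of 1 mouse. In mouse 2 of day 2, round 2, 84 of 93 neutrophils had at least 1% of their UMIs from the 28 genes of the list found in the files, or 90.3% (Wilson 95% interval 82.6% to 94.8%). In mouse 4 of that reaction it was 6 of 6, in mouse 1 27 of 55 (49.1%) and in mouse 3 2 of 15 (13.3%). The mice of round 1 had 39.5%, 16.1% and 32.7%. The day 1 mice had 34.3% (61 of 178), 40% (4 of 10) and 50% (1 of 2), and the mice of day 4 29.7%, 15.9%, 14.3% and 21.7%. The 4 control mice with at least 10 neutrophils had 20%, 7.14%, 5.26% and 4.76%, and the others, with 1 to 7 neutrophils, had 0 such cells. Intervals cover counting error only.

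Other myeloid cells of the same mice carried less of it. The list took 2.46% of UMIs in the neutrophils of mouse 2 and 0.709% in its monocyte/macrophage-type cells. Across the 9 mice it took 0.437% to 2.46% in neutrophils and 0.161% to 0.709% in monocyte/macrophage-type cells, with neutrophils higher in each mouse. Mouse 3 of round 1, with 0.669% in monocyte/macrophage-type cells, came close to mouse 2 there but had 0.908% in neutrophils. Control neutrophils also carried more of the list, at 0.504% against 0.159% in monocyte/macrophage-type cells of control mouse 2 of day 2, round 2. Ifitm1, a gene of the list, averaged 4602 CPM in expanded neutrophils and 104 CPM in all other kept cells. Its part in the gap and in the 1% limit was not tested.

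**Figure D5:**
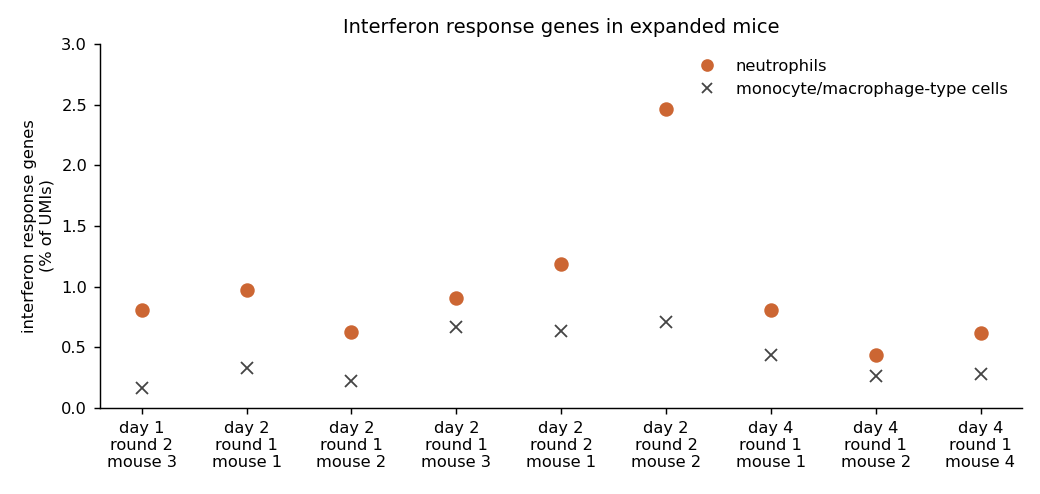
Percent of UMIs from interferon response genes in neutrophils and in monocyte/macrophage-type cells of the 9 expanded mice with at least 20 neutrophils, by day and round. Mouse 2 of day 2, round 2, stands apart in neutrophils at 2.46%, and the monocyte/macrophage-type cells stay at or below 0.709%.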

How the data were processed

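The 10 mRNA matrices hold raw counts of UMIs per gene and barcode (32285 genes), which the authors deposited without normalization. Per the file headers and the submitters' processing notes they come from Cell Ranger 6.1.2, and the notes name build mm10; the annotation is not given in the sources used here. The 8 hashing samples hold antibody lists, and antibody counts lie in the mRNA matrices. No per-sample column was left unmapped.

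Members and gene lists were chosen with earlier results of these data known, and the stefin list after values were seen. Doublets were not called, and cells with several hashtags were kept in libraries. HTODemux (Seurat 5.3.0, quantile 0.99) assigned cells to mice. A leukocyte was a neutrophil or any kept cell with at least 0.1% of its UMIs from Ptprc, Laptm5, Coro1a, Cd52, Tyrobp and Fcer1g. Monocyte/macrophage-type cells also had less than 0.3% Krt5 and Krt14 and less than 0.5% Col1a1 and Col1a2. A gene of their rule is not reported here. Shares were permuted exactly, or 100000 times within day and round over all days. Counts were summed over libraries with at least 10 or mice with at least 20 neutrophils, filtered (filterByExpr), TMM-scaled and tested in edgeR 4.0.16 under R 4.3.3 by quasi-likelihood, with Benjamini-Hochberg adjustment. DESeq2 1.42.0, other scalings, filters, thinning and left-out libraries or mice were alternatives. Where labels do not say that libraries came from separate animals beyond the hashtags, p-values measure only the spread between samples. Wilson 95% intervals and the floors, which are 3 counts of a total, hold counting error alone.

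Genes named are those of fixed groups (16 lists and 15 marker lists, 385 of 387 symbols matched) past an adjusted p of 0.05, up to 4 per group, the 10 largest changes each way without overlap at 20 CPM or more, and Il1b, Cxcl2, Cxcr2, Cxcr4, Mmp9, Ccl3, Siglecf, Camp, Ngp and Ifit1; others were chosen after their values were seen. Genes of the member rule stayed in the fits and in their counts, 8 in each comparison, and are not reported as tests. The labels call the replicate number a sequencing round, so it marks a shared batch and pairs libraries. Deviations of the control and expanded library of a round from their group means correlated at 0.165, 0.0903 and 0.0632 over 3411 genes. The fits were tested on simulated data with 200 changed genes. Between arms, 4% of changes of log2 1 and 41% of changes of log2 2 were recovered. For day 2 against day 1 the values were 2% and 32%, and for day 4 against day 2 they were 15% and 69%. Between the day 2 reactions they were 3% and 45%. A gene without a call may thus still have changed.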

Additional observations from a re-analysis of the deposited data

Results flagged for a closer look

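Of 51 groups of 4 to 10 samples tested for a sample far from the others, 10 had one, and chance gives about 1 in 20. In expanded day 2 mice, Il1b in mouse 1 of round 2 was 22711 CPM (next 16664), Spp1 in mouse 3 of round 1 was 11116.5 CPM (next 4282) and Isg15 in mouse 2 of round 2 was 4857 CPM (next 1809). Among expanded libraries, that of day 4 was high in Cstdc5 at 4014 CPM (next 1417), Fam162a at 179 CPM (next 29.5) and Stfa3 at 386 CPM (next 65.4). The expanded library of day 2, round 2, was high in Ifit1 at 185 CPM (next 48.1), Chil3 at 402 CPM (next 27.7) and Plac8 at 849.6 CPM (next 167), and low in Ngp at 49.98 CPM (next 149.5).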

How the results depend on the processing

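No value reversed under any alternative run (0 of 147 for shares, depth and counts of calls, and 0 of 208 for named genes). Counts of calls have no sign and could not reverse. Of the 147, 88 stayed the same, 18 no longer had a p under 0.05, and 41 counts of calls moved. Of the 208, 95 stayed the same and 113 no longer passed. The library share kept its difference of 6.41 points with the replicate block, with an exact p of 0.0625, and the difference in UMIs per neutrophil was 0.72 (exact p 0.133) with at least 20 neutrophils per library. The 2 genes called with expansion became 15 with DESeq2, 27 without a filter, 18 with at least 20 neutrophils per library, 1 with at least 5, 25 without neutrophils that held monocyte genes and 36 with the replicate block. The 9 called between day 2 and day 1 became 99 without a filter, 0 thinned, 1 without monocyte genes, 2 with either round of day 2 alone and 0 with libraries as replicates. The 2 called between day 4 and day 2 became 36 with DESeq2, 8 with the size factors of DESeq2 in edgeR, 128 without a filter, 4 with round 2 of day 2 alone, 1 with at least 10 neutrophils per mouse (chosen after seeing the data), and 0 thinned, without monocyte genes, with round 1 alone or with libraries as replicates. Leaving out 1 library or mouse gave 0 to 41, 1 to 10 and 0 to 14 calls for these comparisons. The 41 came without the expanded library of day 1, round 1, and the 14 without mouse 4 of day 4. The same step gave day 4 differences of 11.2 to 18.5 points and depth differences of 0.70 to 0.88. Genes tested ran from 1266 to 14781 between arms, and the cause of the other shifts was not tested. A gene with 0 counts in the 161223 UMIs of control neutrophils could lie at up to 18.6 CPM (3 counts).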
